A study of Mus musculus with 3 samples.

Results

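Barcodes called macrophages for their transcripts of the complement C1q subunit genes were 705 of the 26898 kept. They came from 3 single-cell libraries of mouse intervertebral disc digests, with 25 in library 1, 479 in library 2 and 201 in library 3. They were chosen by their unique molecular identifiers (UMIs, each counting a captured transcript). A barcode was kept with at least 500 genes detected and at most 15% of its UMIs from mitochondrial genes. A kept barcode was called a macrophage if it held at least 5 UMIs of C1qa, C1qb and C1qc together, at any depth. These had to come from at least 2 of the genes, with at least 1 UMI of Csf1r, Adgre1 or Ms4a7. It also had to hold 0 UMIs of Cd79a, a B-cell gene. The name macrophage below stands for this rule, which a deep barcode can pass with little C1q. The 7 genes of the rule fixed who was a member, so their levels below are descriptions.

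The study profiled cells of discs from shh-cre:R26R-tdTomato mice at postnatal day 30 (P30) that had received no treatment, with the 10x Genomics 3′ v3 assay, which counts transcripts from their 3′ ends so that levels of different genes can be set side by side without a length correction. Lumbar, thoracic and caudal discs were cut out through the bony vertebral endplates, diced, digested with collagenase and enriched for TdTomato+ cells by sorting. All belong to 1 group: pooled cells of litter-matched animals made each of the 3 libraries, which were sequenced in separate batches, and no genotype or treatment is compared. Every animal carried both alleles, a Cre driven from Shh and a Cre-dependent tdTomato reporter, a pair that marks cells with a history of Shh expression. Shh itself had 0 UMIs in all 705 macrophages, which allows a share of up to 0.426% of cells with a Shh UMI, and no tdTomato count was used here, so how these cells passed the sort was not tested.

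C1q is the recognition part of the classical complement pathway and binds antibody complexes and dying cells. Most complement proteins are made in the liver, whereas C1q is made mainly by macrophages and dendritic cells. In bone marrow, macrophages that carry the adhesion molecule VCAM1 sit at the centre of erythroblast islands, where they engulf the nuclei that maturing red cells expel and recycle iron from aged red cells, a programme that in the mouse spleen and marrow depends on the transcription factor Spi-C. Tissue macrophages outside the marrow often carry LYVE1, FOLR2 or TIM-4 and clear dying cells, and others display antigen on MHC class II.

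The 3 C1q genes lie side by side on the minus strand of chromosome 4 (mm10, GENCODE vM21), C1qb at 136880129 to 136886187, C1qc at 136889804 to 136893065 and C1qa at 136895917 to 136898803, a span of 18675 bases. The rule asked for C1q UMIs, so that these 3 genes were high together was fixed by it. Fcna, which the rule did not use, was high as well. It is the gene for ficolin A (chromosome 2, 25624666 to 25628030), whose product belongs to the lectin pathway of complement. The promoter windows below, from RefSeq on GRCm38.p6, run from 250 bases before to 50 bases after the RefSeq start of each gene. These starts differ from the GENCODE gene bounds given above. The windows are shown for Fcna and for C1qb and C1qc, whose levels are descriptions. C1qb lies at chr4:136886151-136886450, C1qc at chr4:136892865-136893164 and Fcna at chr2:25627925-25628224, all on the minus strand and written 5′ to 3′. Capitals mark GAGGAA or its reverse complement TTCCTC, letters found in many sites of the myeloid factor PU.1.
C1qb: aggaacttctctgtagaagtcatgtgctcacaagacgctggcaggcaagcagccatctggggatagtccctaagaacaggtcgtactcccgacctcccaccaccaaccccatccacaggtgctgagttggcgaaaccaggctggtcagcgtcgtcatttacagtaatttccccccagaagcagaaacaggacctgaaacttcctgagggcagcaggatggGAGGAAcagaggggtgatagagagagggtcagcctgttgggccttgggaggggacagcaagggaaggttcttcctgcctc
C1qc: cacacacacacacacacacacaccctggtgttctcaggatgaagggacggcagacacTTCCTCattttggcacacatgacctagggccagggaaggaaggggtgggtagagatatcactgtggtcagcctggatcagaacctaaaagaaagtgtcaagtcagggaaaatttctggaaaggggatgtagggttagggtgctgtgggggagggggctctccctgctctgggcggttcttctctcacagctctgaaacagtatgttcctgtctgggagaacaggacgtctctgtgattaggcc
Fcna: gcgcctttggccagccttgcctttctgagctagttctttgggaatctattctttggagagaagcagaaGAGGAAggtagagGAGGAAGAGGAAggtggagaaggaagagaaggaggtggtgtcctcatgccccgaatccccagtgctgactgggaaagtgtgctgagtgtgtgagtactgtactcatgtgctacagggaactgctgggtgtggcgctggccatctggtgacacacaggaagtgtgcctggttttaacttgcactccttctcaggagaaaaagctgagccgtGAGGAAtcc
Counted from the RefSeq start, C1qb held 1 match at position -30, and C1qc held 1 on the other strand at -193. Fcna held 4, at -182, -169, -163 and +42. Of all 32851 RefSeq promoter windows of this length, 28.3% held at least 1 match and 4.82% at least 2 on either strand. The matches in C1qb and C1qc are thus of a kind that many promoters have. Windows of other genes named below were searched too and are not shown. Spic and Cd163 held 0 matches, Cd5l and Pf4 1 each, Mrc1 3, and the 2 windows of Ms4a7 1 and 0. None of these letters was tested as a binding site.

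The libraries held 64695292 UMIs (library 1), 145925353 (library 2) and 137188648 (library 3), of which 5732, 10792 and 10374 barcodes were kept. The macrophages were 0.436% of kept barcodes in library 1 (exact 95% Clopper-Pearson interval 0.282% to 0.643%), 4.44% in library 2 (4.06% to 4.84%) and 1.94% in library 3 (1.68% to 2.22%). The mean was 2.27% ± 2.02 (SD, n = 3 libraries), or 1.19% without library 2. The intervals hold no spread between pools, and the pool, the batch and the handling of each digest cannot be told apart in the difference between libraries. Their median depth was 5542 UMIs in library 1, 10806 in library 2 and 11266 in library 3. No macrophage barcode occurred in another library, where 16 to 34 kept barcodes were shared between pairs of libraries.

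The macrophages were mixed in what else they contained. Of the 705 cells, 269 carried over 1% of their UMIs in the 9 measured of 10 erythroid markers (haemoglobin genes, Alas2 and others). These were 2 of 25 in library 1, 170 of 479 in library 2 and 97 of 201 in library 3. Over 1% in 12 neutrophil markers was found in 1, 73 and 43 of the macrophages. The erythroid share was 8.0%, 35.5% and 48.3% among macrophages, against 3.29%, 16.1% and 9.69% among the other kept barcodes, and the neutrophil share was 4.0%, 15.2% and 21.4% among macrophages, against 38.8%, 34.3% and 36.2% among the others. Cells over the erythroid limit were thus a greater part of the macrophages than of the other barcodes in every library, which in library 1 rests on 2 cells, and cells over the neutrophil limit a smaller part. Summed over all UMIs, erythroid markers made up 0.611%, 7.86% and 18.0% in macrophages, against 0.766%, 3.995% and 2.19% in the others, so by this measure they were lower in the macrophages of library 1. Haemoglobin chain Hbb-bs alone reached 3822, 45674 and 95265 counts per 1000000 UMIs (CPM) in the summed macrophages of libraries 1, 2 and 3.

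**Figure D1:**
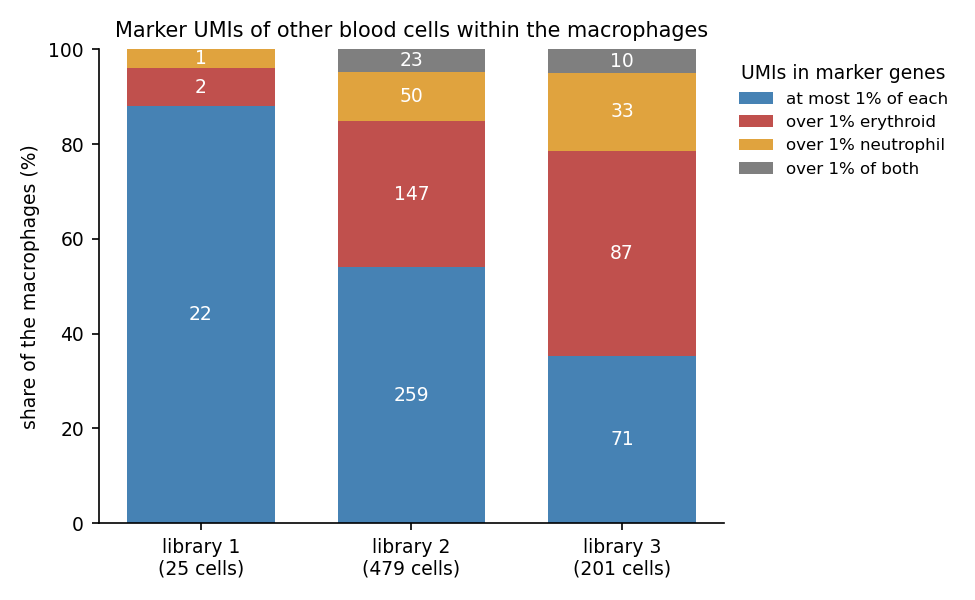
Share of the macrophages of each library (%, numbers of cells in the bars) by whether over 1% of a cell's UMIs came from the 9 measured of 10 erythroid markers, from 12 neutrophil markers, from both or from neither. Cells with neither are 22 of 25 in library 1, 259 of 479 in library 2 and 71 of 201 in library 3.

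Cells with erythroid or neutrophil transcripts held less C1q in libraries 2 and 3. Macrophages with at most 1% of each kind of marker held a median of 167, 161 and 185 C1q UMIs per 10000 in libraries 1, 2 and 3. Those with over 1% erythroid UMIs held 160, 26.5 and 61.7, and those with over 1% neutrophil UMIs 16.6, 15.3 and 33.4. The erythroid-rich cells were also deeper in every library, with medians of 6046, 16232 and 12074 UMIs, against 5511, 8325 and 8367 UMIs in the cells with at most 1% of each. Mki67, a proliferation marker abundant in erythroblasts, was detected in 85.3% and 61.9% of the erythroid-rich macrophages of libraries 2 and 3, against 20.8% and 36.6% of those with at most 1% of each, and it was also seen in 91.8% and 92.2% of the erythroid-rich barcodes that were not macrophages. Per cell, the Spearman correlation of C1q with the erythroid share was 0.22 (n = 25), -0.32 (n = 479) and -0.12 (n = 201) in libraries 1, 2 and 3. Both measures are divided by each cell's total UMIs. The correlation of C1q per 10000 with these total UMIs was 0.0054, -0.50 and -0.40 in the same libraries. C1q UMIs were also found in 1.17%, 10.5% and 5.68% of the other kept barcodes of libraries 1, 2 and 3. Among the erythroid-rich barcodes that were not macrophages the shares were 3.72%, 19.9% and 10.0%. A further 5, 92 and 34 barcodes with 0 Cd79a UMIs held at least 5 C1q UMIs but failed the rest of the rule. How erythroid, neutrophil and C1q transcripts came to share a barcode was not tested.

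**Figure D2:**
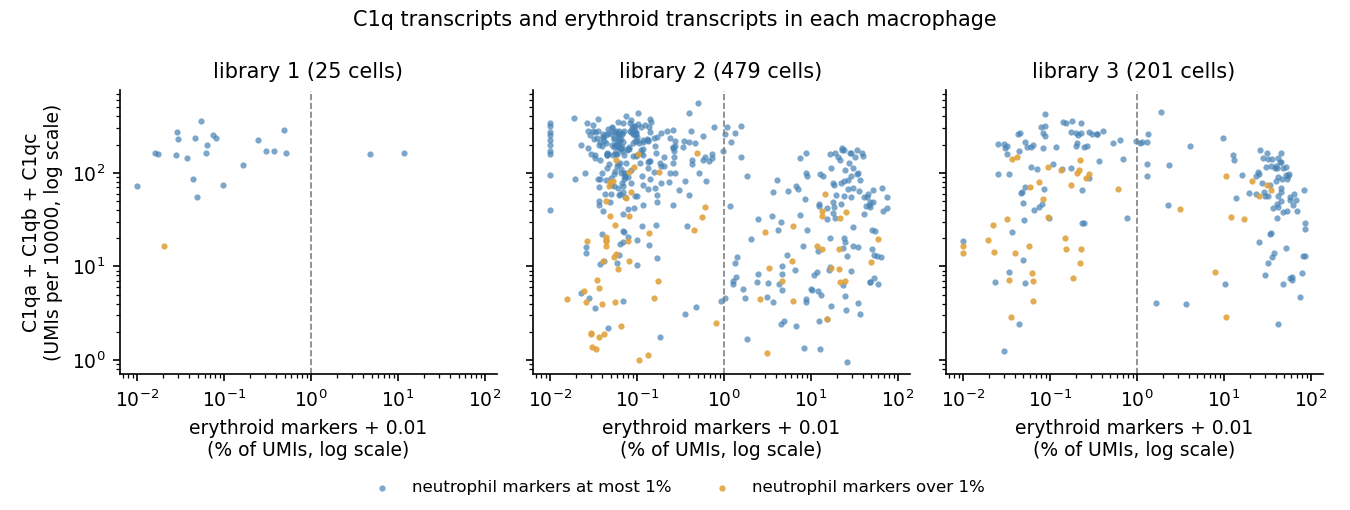
Each point is a macrophage; the x axis is its share of UMIs in erythroid markers (%, plus 0.01, log scale) and the y axis its C1q UMIs per 10000 (log scale), by library. Dashed lines mark 1% erythroid UMIs, and the cells to their right have medians of 160, 26.5 and 61.7 C1q UMIs per 10000 in libraries 1, 2 and 3.

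Because of these mixed cells, each comparison below was also made for the erythroid- and neutrophil-poor macrophages. These are the 22, 259 and 71 with at most 1% of each kind of marker. This limit was chosen after seeing the data, and 75 of the 705 lay near it (0.5% to 2% of either). Against monocyte-like cells, the plot of list shares gives the poor-cell counts of 19 lists. The text gives poor-cell results for some lists and genes only. Scrublet, which scores barcodes for likeness to simulated doublets, marked 9 of 25, 114 of 479 and 60 of 201 macrophages, against 5.95%, 9.41% and 8.83% of all kept barcodes, and 9 of 22, 22 of 259 and 11 of 71 of the poor ones. Marked cells stayed in, and the counts without them stand in the closing part. Markers of other cell types varied. The 4 nucleus pulposus markers Krt8, Krt18, Krt19 and T summed to 0 UMIs in library 1 and to at most 3.90 CPM for any of them in the others, Cd3e of T cells had 3 UMIs in all macrophages, and Cd79b of B cells had 134, 50.4 and 68.9 CPM, against 845, 1051 and 1050 CPM in B-lineage cells, taken as barcodes with at least 3 UMIs of Cd79a and 0 of C1q. Col1a1, a collagen of bone and fibroblasts, was uneven between libraries, with 46.7, 347 and 3780 CPM in the macrophages and 394, 725 and 2958 CPM in the B-lineage cells of the same libraries. The part of such transcripts in the results was not tested.

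The genes used by the rule showed how strongly the cells carried the label. C1qa averaged 4145 ± 2318 CPM (SD, n = 3 libraries), C1qb 3690 ± 1959 CPM and C1qc 2576 ± 1152 CPM. Library 1 was highest for all 3, and C1qa was above C1qb and C1qb above C1qc in every library. The receptors ran lower, with Csf1r, the receptor for the survival factor CSF1, at 426, 222 and 266 CPM, Adgre1, which encodes F4/80, at 408, 161 and 176 CPM, and Ms4a7 at 858, 436 and 396 CPM. The label says resident, but residence was not measured, and these genes bear on the macrophage and complement parts of the name alone. At the edge of the rule, 26 macrophages (0, 20 and 6) held only 5 or 6 C1q UMIs, and 34 barcodes (2, 20 and 12) stood just outside with 3 or 4. Vcam1 was at 29.7 CPM in library 2 and 33.3 CPM in library 3 among those just inside, and at 78.1 and 34.1 CPM among those just outside, so neither edge looked like the bulk of the macrophages.

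Outside the rule, and with mitochondrial, ribosomal, haemoglobin and immunoglobulin genes left out, the most abundant transcript after Tmsb4x in the erythroid- and neutrophil-poor macrophages was by mean CPM Apoe, the carrier of lipid out of cells, at 31882, 24401 and 15986 CPM. Ferritin (Ftl1 9682, 11068 and 9739 CPM), lysozyme (Lyz2 8418, 11323 and 9367 CPM) and the MHC class II chaperone Cd74 (2870, 12361 and 8249 CPM) were also high, with the lysosomal protease Ctsb and its inhibitor Cst3 among the top 25. Lysozyme and ferritin were nearly level across libraries, whereas Cd74 was far lower in library 1. Over all macrophages the neutrophil gene S100a8 was abundant too, at 12492, 31150 and 29512 CPM, although its median cell held few copies: the median was 7.82, 3.70 and 4.96 UMIs per 10000, and the highest cells held 1040, 2053 and 2284.

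For a comparison within the myeloid lineage, the macrophages were set against monocyte-like cells of the same libraries: 145, 893 and 600 barcodes with at least 3 UMIs of Ly6c2, Ccr2 and F13a1 from at least 2 of them, Csf1r detected, at most 1 C1q UMI and 0 of Cd79a. Over 1% neutrophil UMIs were found in 27.6%, 22.1% and 34.3% of monocyte-like cells, against 4.0%, 15.2% and 21.4% of macrophages. Mki67 was detected in 111 of 145, 532 of 893 and 407 of 600, against 4 of 25, 234 of 479 and 101 of 201. Their median depths were 17119, 12669 and 15390.5 UMIs. What part this make-up has in the granule and cell cycle results below was not tested. Each library gave 1 sum of UMIs for either class, and the sums were compared by edgeR's quasi-likelihood test with the library as a block. The 10 genes of either rule are left out below, and genes that vary with them differ by construction. Of 11349 genes tested, 1651 were higher in macrophages (14.5%) and 938 were lower (8.27%) at a Benjamini-Hochberg adjusted p under 0.05. The number called was 4227 without library 1, 1172 without library 2 and 1079 without library 3, against 2589 with all. With both classes limited to erythroid- and neutrophil-poor cells, 14.7% of 10035 genes were higher and 12.2% lower.

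**Figure D3:**
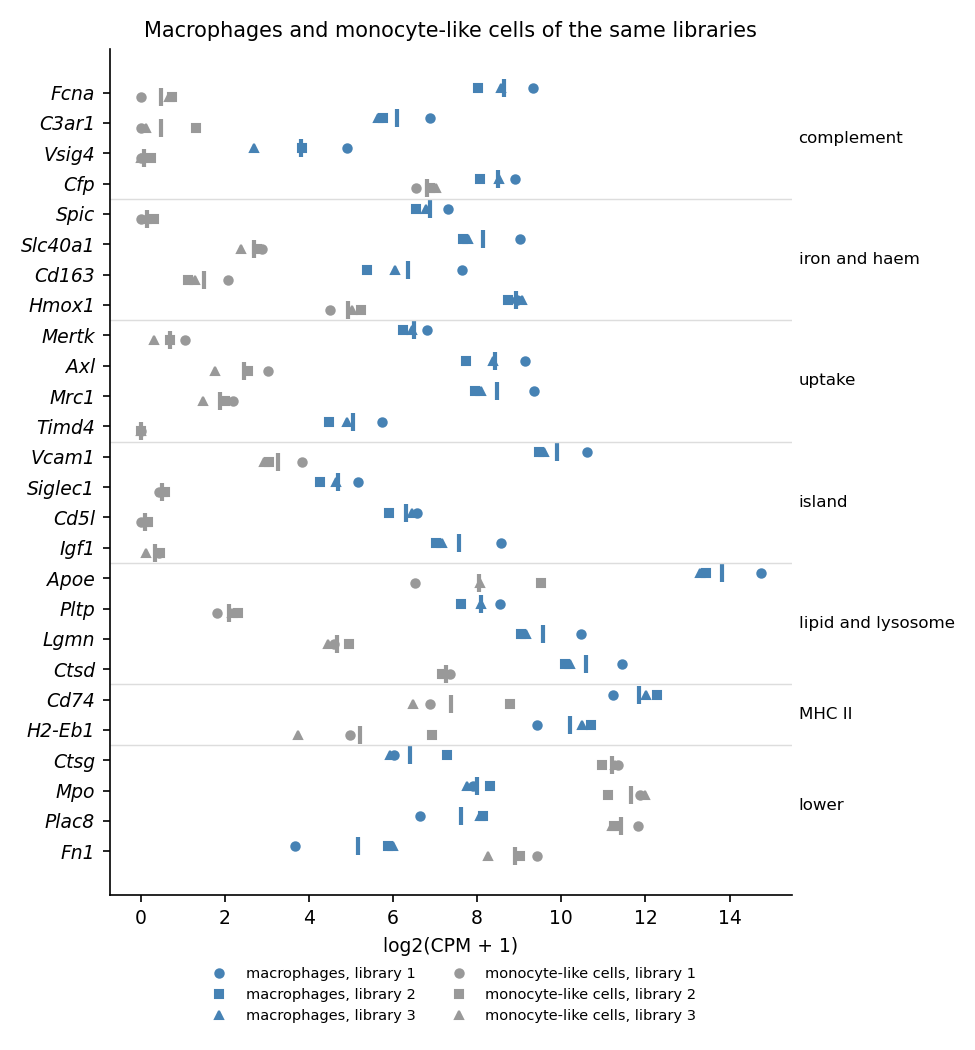
Level of 26 genes, log2(CPM + 1), in macrophages (blue, upper of each pair) and monocyte-like cells (grey, lower), with a symbol for each library and a vertical tick for the mean over libraries. In each gene above the group named lower, every macrophage value is to the right of every monocyte-like value, and in that group the order is turned round. The share of all genes tested with such a separation was not counted.

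Complement genes beyond C1q were mostly higher in macrophages by number. Of 20 tested members of the list 13 rose and 1 fell, with a median log2 fold of 2.16, against 0.04 over all genes tested. In summed level the list was closer, above all in libraries 2 and 3. Its 23 genes made up 0.193%, 0.127% and 0.141% of UMIs in macrophages, against 0.137%, 0.120% and 0.137% in monocyte-like cells. The erythroid- and neutrophil-poor macrophages held 0.195%, 0.174% and 0.181%. Fcna, for ficolin A, had 642, 258 and 377 CPM in macrophages, against 0, 0.683 and 0.597 CPM in monocyte-like cells, a log2 fold of 9.35 ± 0.44 (SE, adjusted p = 1.05e-05). Every macrophage library was far above every monocyte-like library, and the share of all genes tested with such a gap was not counted. Fcna was kept in another list and is not among the 20. Vsig4, a receptor for C3 fragments on resident macrophages, had 123 UMIs in macrophages and 3 in monocyte-like cells, a ratio of 118 with a 95% counting interval of 39.6 to 582. The anaphylatoxin receptors both rose, C3ar1 at 117, 52.9 and 49.2 CPM, against 0, 1.49 and 0.0853 CPM (log2 fold 6.45 ± 0.60, adjusted p = 0.00021), and C5ar1 at 81.7, 42.6 and 37.2 CPM, against 4.28, 12.7 and 10.7 CPM (2.28 ± 0.35, adjusted p = 0.00273). Properdin (Cfp), which stabilises the alternative convertase, had 478, 266 and 364 CPM, against 92.4, 117 and 129 CPM (1.75 ± 0.23, adjusted p = 0.00128).

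Other components behaved unevenly. C2, the protease of the classical convertase, rose by a log2 fold of 3.05 ± 0.45 (adjusted p = 0.00224), with library 1 the highest. C3, the central component, had 123, 136 and 126 CPM in macrophages, against 131, 198 and 165 CPM in monocyte-like cells, which did not pass the test (-0.26 ± 0.19, adjusted p = 0.359). Among erythroid- and neutrophil-poor cells C3 was lower in macrophages, at -1.26 (adjusted p = 0.00144). Calr, the chaperone that was the list's 1 gene to fall, was at -0.89 (adjusted p = 0.0147) in all macrophages, was not called without library 3 (-0.84), and was at -0.07 (adjusted p = 0.848) in the poor cells. In those, 13 of 19 members rose and 1 fell.

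Genes of iron and haem recycling rose in 17 of 19 tested members, and none fell (median log2 fold 1.94). Slc40a1, which encodes ferroportin, the only known iron exporter, had 519, 200 and 218 CPM in macrophages, against 6.42, 5.83 and 4.26 CPM in monocyte-like cells (5.72 ± 0.27, adjusted p = 1.05e-05). Spic, the transcription factor of this programme, had 158, 92.6 and 110.0 CPM, against 0, 0.248 and 0.0853 CPM (9.35 ± 0.40, adjusted p = 1.03e-05). The haptoglobin-haemoglobin receptor Cd163 rose by 5.55 ± 0.26 (adjusted p = 1.05e-05), haem oxygenase Hmox1 by 4.09 ± 0.24 (2.82e-05), biliverdin reductase Blvrb by 3.91 ± 0.25 (3.84e-05) and transferrin (Trf) by 3.66 ± 0.35 (0.000242). The ferritin chains, which store iron, rose less, by 1.72 ± 0.19 (Fth1) and 1.42 ± 0.22 (Ftl1), being abundant in monocyte-like cells too. Among the erythroid- and neutrophil-poor cells 16 of 19 rose and none fell, Slc40a1 by 7.52 and Hmox1 by 3.74. These poor cells were not free of haemoglobin transcripts, since 77.3%, 88.4% and 95.8% of them held an Hbb-bs UMI. The transferrin receptor gene Tfrc, which erythroblasts also use, had 40.8, 239 and 114 CPM in all macrophages, against 54.6, 23.1 and 26.6 CPM in monocyte-like cells (2.24 ± 0.58, adjusted p = 0.026), and was not called without library 2 (1.28) or in the poor ones (1.00, adjusted p = 0.0624).

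The erythroblast island list rose in 13 of 15 members and 1 fell, both in all macrophages and in the erythroid- and neutrophil-poor ones. Vcam1, the adhesion receptor that holds erythroblasts, had 1552, 709 and 768 CPM in macrophages, against 13.2, 7.32 and 6.65 CPM (6.86 ± 0.25, adjusted p = 1.03e-05). Thinned to 2000 UMIs per cell, Vcam1 was detected in 75%, 49.8% and 46.1% of macrophages, against 0.842%, 0.758% and 0.298% of B-lineage cells, whose median depths were 3139, 4175 and 3048 UMIs. Without thinning, the shares were 80.0%, 75.2% and 69.2% of macrophages and 1.62%, 1.85% and 1.42% of B-lineage cells. The share moved with depth, so a cell with 0 Vcam1 UMIs is not shown to lack its transcripts. Siglec1, the sialoadhesin CD169, had 35.0, 18.1 and 24.0 CPM in macrophages and rose by 5.69 ± 0.39 (adjusted p = 5.15e-05), and Igf1, a growth factor, by 9.28 ± 0.38 (1.03e-05). Cd5l, a secreted scavenger protein, had 711 UMIs against 3, a ratio of 684 (233 to 3326). The erythropoietin receptor Epor rose by 4.72 ± 0.38 (0.000106), but its level went with erythroid content, at 87.4 and 42.0 CPM in the erythroid-rich macrophages of libraries 2 and 3, against 29.0 and 7.67 CPM in the poor ones. Emb, an adhesion protein of the list, fell by 3.38 ± 0.35 (adjusted p = 0.000377).

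Genes of uptake and of long-lived tissue macrophages were higher in the macrophages. Of the uptake list 17 of 24 members rose and none fell (median log2 fold 2.99), and of the long-lived list all 16 members tested rose (median 6.11). Mertk, a receptor that binds bridged apoptotic cells, had 111, 74.0 and 87.1 CPM in macrophages, against 1.07, 0.621 and 0.256 CPM in monocyte-like cells (7.39 ± 0.37, adjusted p = 1.31e-05). Its relative Axl rose by 6.32 ± 0.38 (3.06e-05), and the mannose receptor Mrc1 by 7.03 ± 0.30 (1.03e-05), at 653, 246 and 271 CPM, against 3.57, 3.04 and 1.79 CPM. Timd4, the phosphatidylserine receptor TIM-4, had 253 UMIs in macrophages and 0 in monocyte-like cells, at least 243-fold higher with 3 UMIs over the monocyte-like group as the floor. The folate receptor gene Folr2 had 347 UMIs against 1, a ratio of 1002 (179 to 39678). In the erythroid- and neutrophil-poor cells 18 of 21 uptake members and 16 of 16 long-lived members rose, and none fell.

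In several of these genes library 1 stood apart from the others. Lyve1, the hyaluronan receptor of perivascular macrophages, had 210.0, 2.86 and 0.729 CPM in libraries 1, 2 and 3, and Folr2 had 473, 29.0 and 15.7 CPM. The chemokine gene Pf4 had 1978, 383 and 297 CPM, and the selenium carrier gene Selenop 3028, 857 and 893 CPM. MHC class II ran the other way, with H2-Eb1 at 688, 1670 and 1433 CPM, and Cxcl9, an interferon-induced chemokine, at 0, 29.4 and 73.6 CPM. Library 1 held 25 macrophages, whose median mitochondrial share was 6.4%, against 3.47% and 2.69% in libraries 2 and 3, and the file headers name another Cell Ranger version for library 1 than for the others. The share of cells with neither erythroid nor neutrophil markers also differed, at 88.0%, 54.1% and 35.3%, and such markers take part of the UMIs by which a level is divided. The 16 long-lived genes summed to 0.977%, 0.250% and 0.264% of UMIs in all macrophages and to 1.11%, 0.486% and 0.317% in the erythroid- and neutrophil-poor ones, so the gap between libraries 1 and 2 was smaller there. Lyve1 was at 257, 8.05 and 0 CPM in those. The pool, the batch, the counting version, the mixed cells and cell quality cannot be told apart here.

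Lysosomal and lipid genes rose widely, with 20 of 28 members higher and none lower in the first list (median log2 fold 1.52), and 14 of 21 higher and 2 lower in the second (2.28). The protease gene Lgmn had 1406, 524 and 574 CPM in macrophages, against 23.2, 29.7 and 21.1 CPM in monocyte-like cells (4.99 ± 0.33, adjusted p = 4.48e-05), and Ctsd, for cathepsin D, rose by 3.42 ± 0.25 (7.12e-05). Apoe had 27393, 11149 and 10029 CPM, against 91.6, 736 and 269 CPM (5.80 ± 0.76, adjusted p = 0.00128). All macrophage libraries exceeded all monocyte-like libraries in Ctsd, Lgmn and Apoe where values are given, with the share of all genes tested that did so not counted. The cholesterol sensor Nr1h3 (LXR alpha) rose by 6.34 ± 0.30 (1.05e-05), the efflux pump Abca1 by 5.85 ± 0.26 (1.05e-05), the phospholipid transfer protein Pltp by 6.31 ± 0.30 (1.05e-05), lipoprotein lipase Lpl by 3.90 ± 0.33 (0.000138) and the lipid receptor Trem2 by 2.83 ± 0.47 (0.00402).

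MHC class II presentation rose in 10 of 13 members, and none fell. H2-Eb1, a class II beta chain, had 688, 1670 and 1433 CPM in macrophages, against 30.7, 120.4 and 12.3 CPM in monocyte-like cells (5.08 ± 0.63, adjusted p = 0.00101). The invariant chain Cd74 had 2416, 4920 and 4162 CPM, against 117, 441 and 88.1 CPM (4.54 ± 0.44, adjusted p = 0.000254). Library 2 had the highest values of both genes in both classes of cell. Markers of dendritic cells, which present antigen too, moved in part with them: 4 of 8 rose, among them Fscn1 and Itgax (2.76, or 2.30 and not called without library 2), and 2 fell, with 4 of 7 higher and 2 lower in the erythroid- and neutrophil-poor cells. All 12 markers summed to between 0.0341% and 0.0793% of UMIs in macrophages, against 0.0258% to 0.0402% in monocyte-like cells, and none was at 0 in the macrophages. Their part in the result was not tested. The class II regulator Ciita passed the test at 3.39 ± 0.54 (0.00326), although library 1 had 0 CPM of it in macrophages.

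Among signals to other cells, 8 of 17 chemokines rose and 1 fell, and 13 of 24 cytokines and growth factors rose and 1 fell. Cxcl12, among the 8, was at 3.71 ± 1.01 (adjusted p = 0.0316), at 5.93 without library 2 and at 2.09 without library 3. It is also a stromal marker and rose together with Adipoq and Kitl, 3 of 10 osteoblast and stromal markers in all macrophages and in the erythroid- and neutrophil-poor ones. These 10 markers summed to 0.0117%, 0.00644% and 0.246% of UMIs in all macrophages of libraries 1, 2 and 3. In the erythroid- and neutrophil-poor macrophages the sums were 0.00714%, 0.0128% and 0.586%. The limit thus did not remove these markers, whose share was higher in the poor cells of libraries 2 and 3. Monocyte-like cells held 0.00485% to 0.0593%. The part of these markers in the result was not tested. Ccl8 had 550 UMIs in macrophages and 1 in monocyte-like cells, a ratio of 1588 (284 to 62825), and Ccl12, like Ccl8 an attractant of monocytes, had 292 against 2, a ratio of 421 (116 to 3497). Cxcl16, a scavenger receptor and chemokine, had 204, 112 and 119 CPM, against 3.57, 1.74 and 0.426 CPM (6.60 ± 0.44, adjusted p = 4.48e-05). Il18 rose by 4.81 ± 0.45 (0.000222) together with its antagonist Il18bp, by 5.81 ± 0.25 (1.03e-05), and the growth factor Pdgfb by 5.60 ± 0.39 (5.26e-05). Il1a had 47 UMIs against 0, at least 45.2-fold higher. Ccl3 was the chemokine that fell, by 1.15 ± 0.19 (0.00391), and in the erythroid- and neutrophil-poor cells it was at -0.72 (adjusted p = 0.0533). It also missed the threshold without library 3 (-1.06) and without the library as a block (-1.37).

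Transcription factors went both ways, with 9 of 25 higher and 3 lower, where 14.5% of all genes tested were higher and 8.27% lower. The 3 lower are near that share and are given as single genes. Maf, a factor of mature macrophages, had 805, 233 and 214 CPM in macrophages, against 9.27, 6.52 and 3.84 CPM in monocyte-like cells (5.83 ± 0.28, adjusted p = 1.06e-05). Pparg, a lipid-activated receptor, rose by 4.59 ± 0.41 (0.000178). Irf8, Klf4 and Cebpb, which direct monocyte development, fell by 1.30 ± 0.19 (0.00209), 1.11 ± 0.20 (0.00602) and 1.06 ± 0.24 (0.0144). Without library 3, Klf4 (-1.08) and Cebpb (-1.02) did not pass the test, and without library 2 Cebpb (-0.83) did not. Spi1, which encodes PU.1, had 350.1, 303 and 339 CPM, against 276, 458 and 459 CPM, and did not pass the test (-0.16 ± 0.21, adjusted p = 0.625).

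Of the osteoclast list 5 of 12 members rose, which were Car2, Tnfrsf11a, Acp5, Myo1d and Nfatc1, and none fell. In the erythroid- and neutrophil-poor cells 4 of 8 rose, which were Tnfrsf11a, Acp5, Car2 and Nfatc1, and none fell. Tnfrsf11a, the receptor RANK, had 40.8, 20.9 and 33.2 CPM in macrophages, against 3.21, 2.36 and 1.96 CPM (3.72 ± 0.32, adjusted p = 0.000164). Other members of the list were low, with the protease gene Ctsk at 0, 14.8 and 5.47 CPM and the calcitonin receptor gene Calcr at 0 UMIs in all macrophages.

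Of the blood monocyte list 6 of 14 members fell and 2 rose, Cx3cr1 (1.98 ± 0.30, adjusted p = 0.00238) and Treml4, and in the erythroid- and neutrophil-poor cells 8 of 13 fell and 2 rose. Genes of the granules of immature myeloid cells were among those with the lowest log2 folds. The protease gene Ctsg had 64.2, 154 and 60.1 CPM in macrophages, against 2601, 1998 and 2495 CPM in monocyte-like cells (-4.61 ± 0.39, adjusted p = 0.000135). Mpo, myeloperoxidase of granule-forming progenitors, had 239, 313 and 216 CPM, against 3766, 2195 and 4067 CPM (-3.56 ± 0.32, adjusted p = 0.000188). Plac8 fell by 3.54 ± 0.44 (0.00102) and fibronectin Fn1 by 3.03 ± 0.47 (0.00278). Every library showed these directions. Whether they reflect the macrophages or the make-up of the monocyte-like cells was not tested. Mpo is also 1 of the 12 neutrophil markers, of which 7 rose and 2 fell.

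Proliferation genes gave different answers with and without the mixed cells. Of 18 cell cycle members 2 fell in all macrophages, Stmn1 and Aurkb (median log2 fold of the list -0.55), near the 8.27% of all genes tested that fell. Aurkb (-1.06) was not called without the library as a block. In the erythroid- and neutrophil-poor cells 16 of 18 fell (median -1.37), where 12.2% of all genes tested fell. Mki67 had 70.0, 505 and 330.1 CPM in all macrophages, against 224, 263 and 247 CPM in monocyte-like cells, and in the poor cells 7.14, 119.5 and 215 CPM, against 262, 262 and 267 CPM. It did not pass the test in either (0.26, adjusted p = 0.718, and -1.19, adjusted p = 0.0653), but its direction turned, and without library 1 it passed the test at 0.81 in all macrophages and at -0.76 in the poor ones. The erythroid list rose in 9 of 9 members in all macrophages and 5 of 6 in the poor ones, and the neutrophil list in 7 of 12, with 2 lower, in all macrophages, and in 1 of 10, with 4 lower, in the poor ones. The poor cells of both classes were chosen by a limit on these same markers, so the counts of these lists in them are descriptions.

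**Figure D4:**
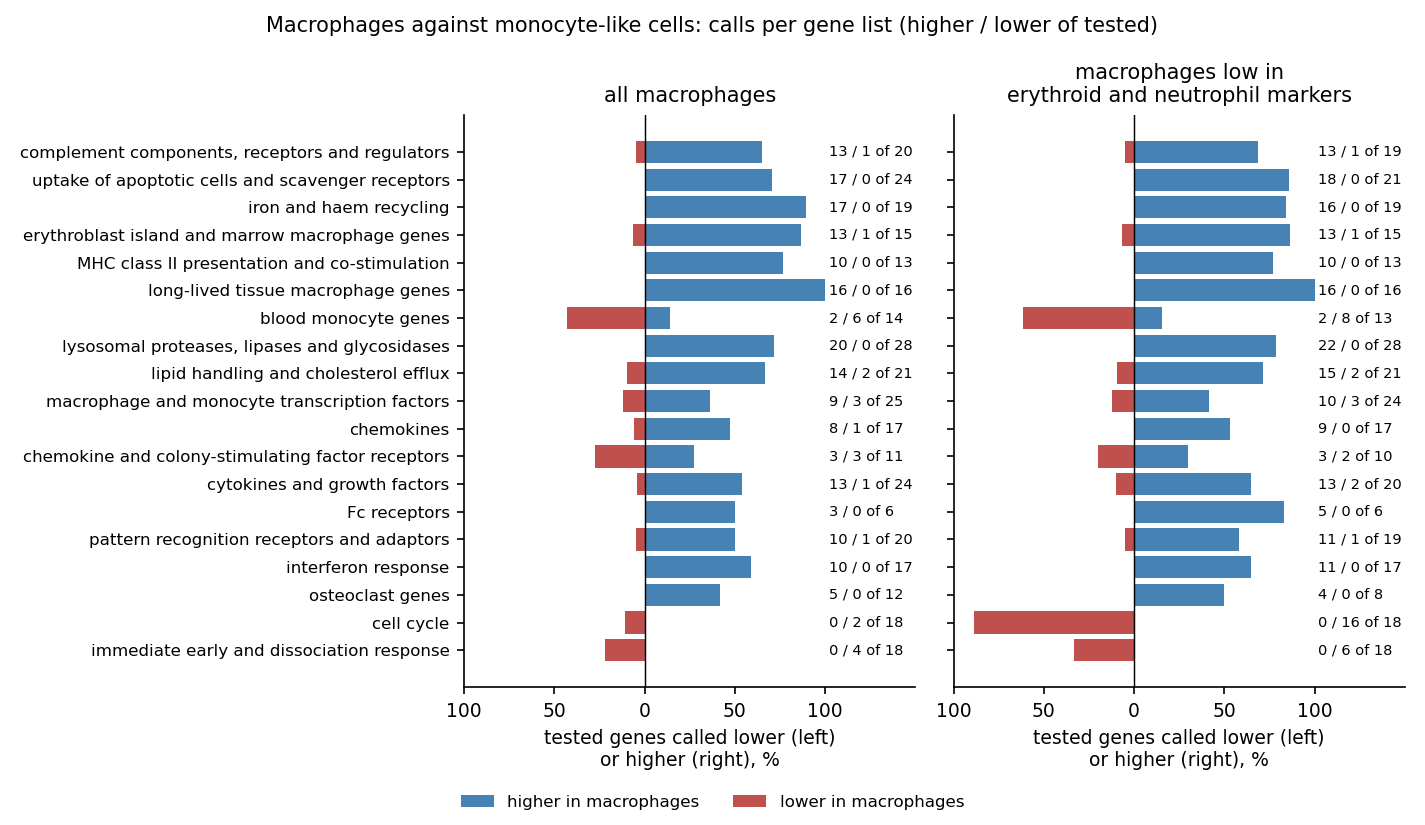
Share of tested genes of 19 lists called higher (bars to the right) or lower (to the left) in macrophages than in monocyte-like cells (%), for all macrophages and for those low in erythroid and neutrophil markers. Numbers give genes higher, lower and tested; long-lived genes are 16 of 16 higher in both panels, and cell cycle genes are 2 of 18 lower in the left panel and 16 of 18 in the right.

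Within the macrophages, cells with a Vcam1 or Spic UMI after thinning to 2000 UMIs were set against cells with neither, in libraries 2 and 3 (251 against 201 cells and 97 against 94). Library 1, with 19 against 5, was too small to enter. Vcam1 and Spic are left out of these results. With 2 libraries the test has 1 residual degree of freedom and leans on the spread shared across genes, and without the library as a block it called 93 genes. Of 9983 genes tested, 1139 were higher (11.4%) and 1079 lower (10.8%) in the Vcam1 or Spic cells. Within the erythroid- and neutrophil-poor cells (128 against 107 and 28 against 37) 6.00% of 7333 genes were higher and 6.00% lower. The Vcam1 or Spic cells held more C1q, a median of 101 and 92.9 UMIs per 10000, against 32.9 and 41.3 in the cells with neither. Over 1% erythroid UMIs were found in 42.2% and 59.8% of cells, against 30.3% and 38.3%, and over 1% neutrophil UMIs in 13.1% and 19.6%, against 19.9% and 24.5%. Median depths were 10282 and 11288 UMIs, against 12852 and 12851.5. In the erythroid- and neutrophil-poor cells the C1q medians were 186 and 179, against 123 and 183, so library 3 no longer showed the difference. In library 1, which was not tested, all macrophages had 162 in the Vcam1 or Spic cells, against 172. The part of these differences in the results was not tested.

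Ferroportin and other genes of iron recycling were higher in the Vcam1 or Spic cells. Iron and haem genes rose in 13 of 18 members and none fell. Slc40a1 had 344 and 426 CPM in the Vcam1 or Spic cells of libraries 2 and 3, against 62.5 and 31.8 CPM in the cells with neither (log2 fold 2.82 ± 0.18, adjusted p = 2.9e-10). Hmox1 had 661 and 991 CPM, against 199 and 124 CPM (2.19 ± 0.18, adjusted p = 7.71e-09). In neither gene did the groups overlap, but each had only 2 values, and the share of all genes tested without overlap was not counted. The log2 folds of Slc40a1 and Hmox1 in the erythroid- and neutrophil-poor cells were 3.77 and 2.48. In these poor cells (235 and 65 after thinning), Slc40a1 was detected in 50.9% and 40.0% of cells with Vcam1, against 8.80% and 2.50% of cells without it, and Cd5l in 11.8% and 20%, against 0.80% and 2.50%.

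Fcna was higher as well, with 447 and 737 CPM in the Vcam1 or Spic cells, against 77.5 and 60.2 CPM (2.88 ± 0.17, adjusted p = 5.1e-11). Itgad, the integrin alpha D of red pulp macrophages, rose by 3.47 ± 0.22 (1.8e-10), Ccr3, known best as the eotaxin receptor, by 3.18 ± 0.23 (1.79e-09), Timd4 by 3.32 ± 0.31 (5.79e-08), Mertk by 3.02 ± 0.17 (3.9e-11) and Gdf15, a stress-induced cytokine, by 2.96 ± 0.20 (7.27e-10). Lysosomal genes rose in 24 of 28 members, Ctsd by 1.78 ± 0.10 (3.9e-11). Apoe rose by 0.84 ± 0.08 (5.94e-08), but in the erythroid- and neutrophil-poor cells it was at 0.50 (adjusted p = 0.127). Not every complement gene followed Fcna, since 6 of 19 rose and 1 fell, and C3ar1 had 55.5 and 40.7 CPM, against 49.7 and 55.5 CPM (-0.18 ± 0.19, adjusted p = 0.555).

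Cells with neither Vcam1 nor Spic held more of other genes. S100a4, a calcium-binding protein of motile and recruited myeloid cells, had 159 and 221 CPM in the Vcam1 or Spic cells, against 746 and 747 CPM (-2.11 ± 0.12, adjusted p = 3.9e-11). The chemokine gene Ccl9 fell by 1.65 ± 0.18 (4.81e-07). MHC class II chains fell, H2-Eb1 by 0.73 ± 0.09 (3.11e-06) and H2-Ab1 by 0.54 ± 0.09 (0.000119), with 4 of 11 list members lower and 3 higher. Cell cycle genes fell in 16 of 18 members, with Stmn1 at 371 and 323 CPM, against 671 and 660.3 CPM (-1.04 ± 0.10, adjusted p = 1.24e-07), and in 18 of 18 in the erythroid- and neutrophil-poor cells. Without the library as a block Stmn1 (-1.04), H2-Eb1 (-0.73), H2-Ab1 (-0.54) and Apoe (0.84) kept these folds but were not called. H2-Ab1 was also not called with predicted doublets left out (-0.37).

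A second division, at each library's median of thinned H2-Aa, H2-Ab1 and H2-Eb1 UMIs, set 216 and 92 MHC class II high cells against 236 and 99 low cells. Those 3 genes are left out. Of 9567 genes tested, 488 were higher (5.10%) and 560 lower (5.85%), and without the library as a block 137 genes were called. The high cells were poorer in erythroid and neutrophil transcripts, with over 1% erythroid UMIs in 14.8% and 40.2% of cells, against 57.2% and 57.6% of the low cells. Over 1% neutrophil UMIs were found in 6.02% and 14.1%, against 25.4% and 29.3%. Median depths were 9932 and 11378.5 UMIs in the high cells, against 14524.5 and 12444. Their C1q medians were 152 and 98.8 UMIs per 10000, against 25.8 and 55.6. The erythroid- and neutrophil-poor cells were divided anew at their own medians, 17 and 8 thinned UMIs, against 2 and 1 in all macrophages. This set 117 and 32 high cells against 118 and 33 low cells. The C1q medians of these sides were 162 and 195, against 157 and 88.2, so they were close in library 2. Between them, 7 of 7476 genes were higher (0.0936%) and 3 lower (0.0401%). Most of the calls were not made there, but the sides are not those of all macrophages.

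The 7 were Cd74, H2-DMb1, H2-DMa, Cxcl9, Tmem176a, Tmem176b and Cd52, and the 3 were Fcna, Cd5l and Car2. They are given here after their values were seen, and Cd52 was not called in all macrophages. Cd74 had 13026 and 9189 CPM in the high cells, against 305 and 474 CPM in the low cells (4.73 ± 0.37, adjusted p = 2.56e-08), and H2-DMa, which loads peptide on class II, had 441 and 312 CPM, against 54.8 and 78.1 CPM (2.41 ± 0.29, adjusted p = 8.51e-06). The poor cells gave 3.13 (adjusted p = 0.0128) and 1.91 (0.0284). Cxcl9 had 68.9 and 162 CPM, against 7.16 and 8.89 CPM (3.53 ± 0.30, adjusted p = 7.89e-08), and 3.30 (0.0284) in the poor cells.

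Fcna and Cd5l went the other way. Fcna had 173 and 234 CPM in the high cells, against 299.9 and 471 CPM in the low cells (-1.02 ± 0.25, adjusted p = 0.00967), and in the poor cells 59.9 and 109 CPM, against 469 and 521 CPM (-2.50, adjusted p = 0.0354). Cd5l had 27.1 and 19.9 CPM, against 76.7 and 135 CPM (-2.15 ± 0.30, adjusted p = 5.85e-05), and -4.60 (adjusted p = 0.0448) in the poor cells. Both genes were lower in the high cells of each library. Without the library as a block Fcna (-1.05), Tmem176a (2.04), Tmem176b (1.92) and Car2 (-1.59) were not called, nor was Fcna with predicted doublets left out (-0.99). Slc40a1 (-0.56 ± 0.26), Spic (-0.31 ± 0.28), Hmox1 (-0.21 ± 0.27) and Vcam1 (-0.57 ± 0.27) did not pass the test, with adjusted p of 0.196, 0.582, 0.721 and 0.196.

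**Figure D5:**
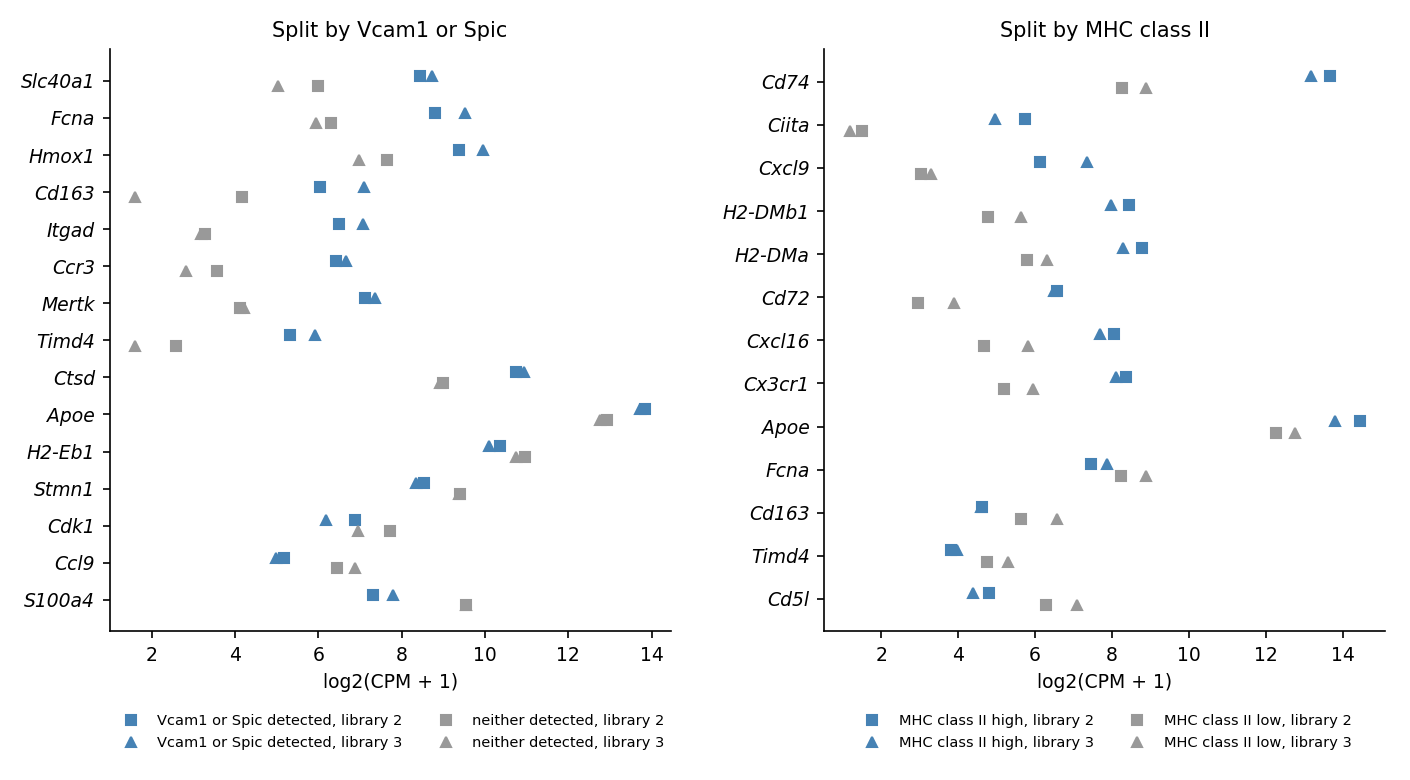
Level of genes, log2(CPM + 1), in the macrophages of library 2 (squares) and library 3 (triangles). Left, cells with Vcam1 or Spic detected (blue, upper of each pair) and with neither (grey, lower); right, MHC class II high (blue) and low cells (grey). Slc40a1 stands at 344 and 426 CPM against 62.5 and 31.8 CPM on the left, and Cd5l at 27.1 and 19.9 CPM against 76.7 and 135 CPM on the right.

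Against all other kept barcodes, which include every other cell of the digest, 11.4% of 14967 genes were higher in macrophages and 11.4% lower, and 1109 genes were called without the library as a block. This is a description, because the rule divides the same cells. Fcna had 642, 258 and 377 CPM in macrophages, against 0.486, 5.22 and 2.07 CPM in the other barcodes (log2 fold 7.64). All 16 long-lived genes and 25 of 28 lysosomal genes were higher, as were Vcam1 at a log2 fold of 5.27 and Cd5l at 7.35. With the macrophages limited to the erythroid- and neutrophil-poor ones, 12.7% of 14842 genes were higher and 18.4% lower, and 72 genes were called in the direction opposite to that in all macrophages. Fcna (7.31), Vcam1 (5.01) and Cd5l (7.20) stayed higher, as did all 16 long-lived and 28 of 28 lysosomal genes.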

How the data were processed

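The authors deposited a matrix of UMI counts per gene and barcode for each of the 3 libraries. Per the submitters' processing notes, Cell Ranger 3.0.2, Seurat 4 and mm10 were used, with no role stated for each. Per the file headers, library 1 was counted with another Cell Ranger version than libraries 2 and 3, and neither is the version in the notes; what this does to the counts was not tested. Barcodes were deposited already filtered, and the 30406 gene IDs shared by all libraries were used. Levels are counts per 1000000 of a group's summed UMIs in each library (CPM).

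Sums were tested with edgeR 4.0.16 (R 4.3.3): TMM scaling, filterByExpr, a quasi-likelihood test with the library as a block because both sums come from 1 pool, and Benjamini-Hochberg adjustment over all genes tested. P-values rest on how far the difference between the sums varied from library to library, with each gene's spread moderated across genes. They cover these libraries alone. Errors of log2 folds are the fold over the square root of the F statistic. Intervals are exact 95% and, like the floor of 3 counts, cover counting error only. Monocyte-like and B-lineage cells were chosen by marker counts. For detection shares and the divisions within the macrophages each cell was thinned to 2000 UMIs, and shallower cells were left out (1, 27 and 10 macrophages). Scrublet as in scanpy 1.11.5 scored doublets, and none was removed. Scripts ran in Python 3.11.15, and the fit was tested on simulated data.

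The members, the 29 gene lists and the comparisons were chosen with earlier results of these data known. The rule for named genes took, among called genes with at least 50 CPM and 1 direction in every library, the 12 with the highest and the 12 with the lowest log2 folds, the 2 called members of each list that moved most each way, and the 25 most abundant genes. Other list members were chosen for the text after their values were seen. Mitochondrial, ribosomal, haemoglobin, immunoglobulin and unnamed genes were left out of the ranks. Promoter sequences are from RefSeq, in which C1qa, Vcam1, Slc40a1 and Hmox1 were not matched.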

Additional observations from a re-analysis of the deposited data

How the results depend on the processing

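The share of macrophages lay between 1.84% and 2.43% under other limits on mitochondrial share, genes, C1q UMIs and doublets, was 1.16% for the erythroid- and neutrophil-poor cells, and ran between 1.19% and 3.19% with a library left out. Against monocyte-like cells 2589 genes were called, between 1079 and 4227 with a library left out, 2245 by DESeq2 1.42.0, 3639 without the filter on low counts, 2038 with no replicate block, and 3441 with predicted doublets left out. Against all other barcodes 3424 genes were called, between 1567 and 4307 with a library left out, 1109 with no replicate block and 2216 by DESeq2. For the Vcam1 or Spic division 2218 genes were called, 93 with no replicate block, 461 by DESeq2, 1008 with a mitochondrial limit of 5%, 914 after thinning to 1000 UMIs, 880 in the erythroid- and neutrophil-poor cells and 2088 with predicted doublets left out. For the MHC class II division 1048 were called, 137 with no replicate block, 276 by DESeq2 and 214 with at least 10 C1q UMIs. The count was 10 in the poor cells, divided at their own medians, and 1256 with predicted doublets left out. The causes were not tested. Neither division could be fitted without library 2 or library 3, which leaves 1 library and no residual degrees of freedom.

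Over 108 gene results and 1510 alternative values, 1471 stayed on their side of the threshold, of which 1465 also kept their direction and 6, passing the test in neither setting, did not (3 of Mki67, 1 each of Ctsk, Spi1 and C3ar1). Another 28 were no longer called and 9 became called. The direction turned with a call on either side for 2 values, both among the erythroid- and neutrophil-poor cells without library 1 against monocyte-like cells: Calr was at 0.15 and Mki67 at -0.76. DESeq2 size factors moved no call of these genes. The 25 macrophages of library 1 limit what that library can show, and both divisions rest on 2 libraries.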
